A study of Mus musculus with 40 samples.

Results

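The cannabinoid receptor gene *Cnr1* and 6 genes for enzymes that make or break down its lipid ligands (*Dagla*, *Daglb*, *Mgll*, *Abhd6*, *Napepld* and *Faah*) were followed in the brain of mice colonized with stool microbes from children whose epilepsy resisted drugs. They were chosen by name from the 47643 genes of the count tables, and all 7 were counted in both regions. Recipients were germ-free wild-type Swiss Webster mice, an outbred stock, described in the methods as females 6 to 8 weeks old that ate a control diet. Each of 20 cohorts received the stool that 1 of 10 donors gave before starting the ketogenic diet (pre-KD) or while on it (post-KD), so every cohort was colonized and neither an uncolonized group nor a healthy donor group enters these comparisons. Hippocampus and frontal cortex were taken on day 4, and RNA of 6 mice was pooled into each library, which leaves 10 libraries in each region and condition, 40 in all.

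Endocannabinoids are lipids that neurons make on demand from their membranes and that travel backwards across the synapse to quiet the sending terminal. The receptor on that terminal, CB1, is encoded by *Cnr1* and is among the most abundant G protein-coupled receptors of the forebrain, on terminals of cholecystokinin interneurons above all. The ligand 2-arachidonoylglycerol is made by the diacylglycerol lipases of *Dagla* and *Daglb* and broken down by monoacylglycerol lipase (*Mgll*) and, for a smaller share, by ABHD6 (*Abhd6*). Anandamide, the other main ligand, can be released by the phospholipase D of *Napepld* and is hydrolysed by fatty acid amide hydrolase (*Faah*). This signalling limits glutamate release and is studied in epilepsy for that reason.

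Libraries held 1140756 to 1947416 reads counted on genes in hippocampus and 1188447 to 2095352 in frontal cortex. The labelled regions were checked against marker genes, of which 5 of 6 hippocampal ones were higher in hippocampus, while 6 of 6 tested striatal genes were higher in frontal cortex (edgeR, adjusted p under 0.05). Libraries of 1 region correlated with each other at a median r of 0.725 (hippocampus) and 0.839 (frontal cortex) over the 6462 genes whose mean was above 20 CPM (counts scaled to a common library size), lowest in the pre-KD hippocampal libraries of donors 5 and 7 (0.618 and 0.653) and, in frontal cortex, in the pre-KD library of donor 1 (0.726). Y-linked transcripts summed to more than 10 CPM in 9 of 40 libraries, with 2 or 3 in each group, although the methods name female mice. P values measure how pools differ, and how single mice differ inside a pool was not measured.

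Positions upstream of a gene's start are shown for the 2 members that later comparisons single out, *Daglb* and *Mgll*. RefSeq entries on GRCm38.p6 gave 10 promoter windows for 6 of 7 members, and the 250 bases before a start are printed here, 5′ to 3′ on the gene's strand. Searched on both strands were the GC box as GGGCGG, the CCAAT box by those letters, the TATA box as TATAAA, the E-box as CACGTG and the cyclic AMP response element as TGACGTCA, and a match is in capitals. *Mgll* has 2 such windows, and the one that ends just before the annotated start of the gene is printed. The *Daglb* window lies at chr5:143464243-143464492 on the plus strand and the *Mgll* window at chr6:88724162-88724411, also on the plus strand. The annotated *Daglb* start lies further on, at 143464584, and 0 of its annotated transcripts held the 30 bases that follow the window.
*Daglb*: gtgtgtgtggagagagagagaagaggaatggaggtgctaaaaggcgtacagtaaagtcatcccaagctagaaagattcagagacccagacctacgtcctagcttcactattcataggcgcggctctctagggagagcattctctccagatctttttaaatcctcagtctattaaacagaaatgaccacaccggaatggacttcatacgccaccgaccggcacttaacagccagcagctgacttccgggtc
*Mgll*: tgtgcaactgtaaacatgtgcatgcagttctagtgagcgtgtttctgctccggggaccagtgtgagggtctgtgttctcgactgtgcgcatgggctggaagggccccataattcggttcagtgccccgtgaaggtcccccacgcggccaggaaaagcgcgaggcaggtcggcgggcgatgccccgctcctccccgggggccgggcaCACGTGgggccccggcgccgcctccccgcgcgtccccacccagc
The printed *Mgll* window contained 23 CpG dinucleotides, 68% G and C, and 1 CACGTG, which 6.02% of 32851 mouse promoter windows of that length contain. The other *Mgll* window, at chr6:88724454-88724703, had 40 CpG, 74.8% G and C, 1 GC box, which 32.7% of all windows hold, and no CACGTG. In the *Daglb* window 9 CpG were counted at 49.2% G and C, against medians of 6 and 52.4% over all windows, and the letters of none of the 5 motifs were found there. The windows of *Cnr1*, *Faah*, *Napepld* and *Abhd6* had 5 to 36 CpG.

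*Mgll* was by far the most abundant of the transcripts in both regions. Per kilobase of exon (GENCODE M21), it reached 50.7 ± 10.01 CPM (hippocampus) and 65.6 ± 11.8 CPM (frontal cortex) (SD, n = 20 libraries each). It exceeded *Abhd6*, the next in order, in 20 of 20 libraries of either region. On the same scale *Abhd6* followed at 18.1 ± 8.27 and 16.6 ± 4.63 CPM per kilobase, *Cnr1* at 12.6 ± 4.78 and 11.3 ± 3.69, *Faah* at 9.96 ± 3.18 and 7.91 ± 3.49, and *Dagla* at 7.12 ± 4.80 and 5.21 ± 3.05. *Napepld* and *Daglb* were lowest and changed places between regions, with 4.50 ± 3.34 and 2.89 ± 1.41 in the hippocampus and 2.501 ± 1.92 and 2.70 ± 1.196 in the frontal cortex. Below *Mgll*, neighbours in this order were not separated in every library, since the higher one led in only 12 to 16 of 20 libraries. The order depends on division by exon length, which would not apply to a 3′-end kit such as the QuantSeq kit that the study also lists. Without it *Abhd6*, at 42.8 CPM in hippocampus and 39.3 CPM in frontal cortex, lay below *Cnr1* (81.1 and 72.6 CPM) and *Faah* (78.0 and 61.97 CPM), and *Napepld* (17.8 and 9.89 CPM) lay below *Daglb* (27.6 and 25.8 CPM) in both regions.

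**Figure D1:**
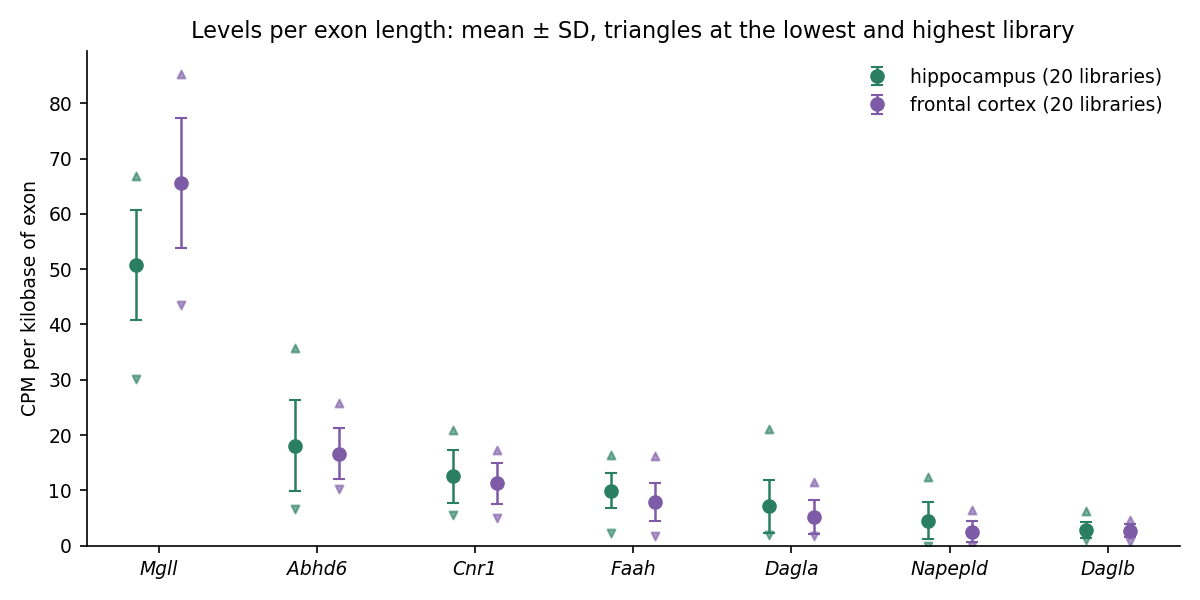
Levels of the 7 transcripts per exon length, with CPM per kilobase of exon on the vertical axis, the genes on the horizontal axis, circles and bars for mean ± SD over 20 libraries of a region, and triangles for the lowest and highest library. *Mgll* stands at 50.7 (hippocampus) and 65.6 (frontal cortex), and each of the other means is at 18.1 or lower.

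The transcripts differed in how much they varied between pools of one group. *Mgll* had a coefficient of variation of 14.7% to 24.6% within the 4 groups, where counting alone would give 4.26% to 5.31%. *Napepld* varied by 67.8% to 84.96%, against 19.1% to 26.7% from counting, and was listed at 0 in 1 post-KD hippocampal and 2 post-KD frontal cortical libraries. *Dagla* varied by 48.8% to 73.5% against 12.3% to 15.5%. The other 6 transcripts had at least 10 counts in each of the 40 libraries, and *Cnr1*, *Abhd6*, *Faah* and *Daglb* also varied by more than counting alone in each group.

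Whether the post-KD microbiota altered the receptor transcript was asked in each region separately. *Cnr1* in the hippocampus ran from 40.4 over a median of 72.5 to 135 CPM in pre-KD cohorts and from 35.6 over 96.8 to 133 CPM in post-KD cohorts, with the higher value post-KD for 8 of 10 donors. In frontal cortex it ran from 32.1 over 74.8 to 95.2 CPM and from 34.5 over 74.4 to 111 CPM, with the higher value post-KD for 6 of 10 donors. Values of both conditions overlapped over most of their range in either region. The log2 fold change was 0.16 in the hippocampus (95% interval -0.35 to 0.67, adjusted p = 0.9998, edgeR) and 0.15 in the frontal cortex (-0.27 to 0.57, adjusted p = 0.986, edgeR). Leaving out 1 donor at a time gave 0.08 (without donor 10) to 0.37 (without donor 9) in hippocampus and 0.029 (without donor 9) to 0.26 (without donor 3) in frontal cortex. Markers of cholecystokinin-type interneurons summed to 414 to 626 CPM pre-KD and 324 to 546 CPM post-KD in the hippocampus, and 0 of 7 passed the adjusted threshold (1 unadjusted, edgeR). The SE of their fitted changes was 0.14 for *Cck* and ran from 0.37 (*Cxcl14*) to 1.46 (*Htr3a*) for the others. The sum over these genes is not a measure of how many such cells were present.

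**Figure D2:**
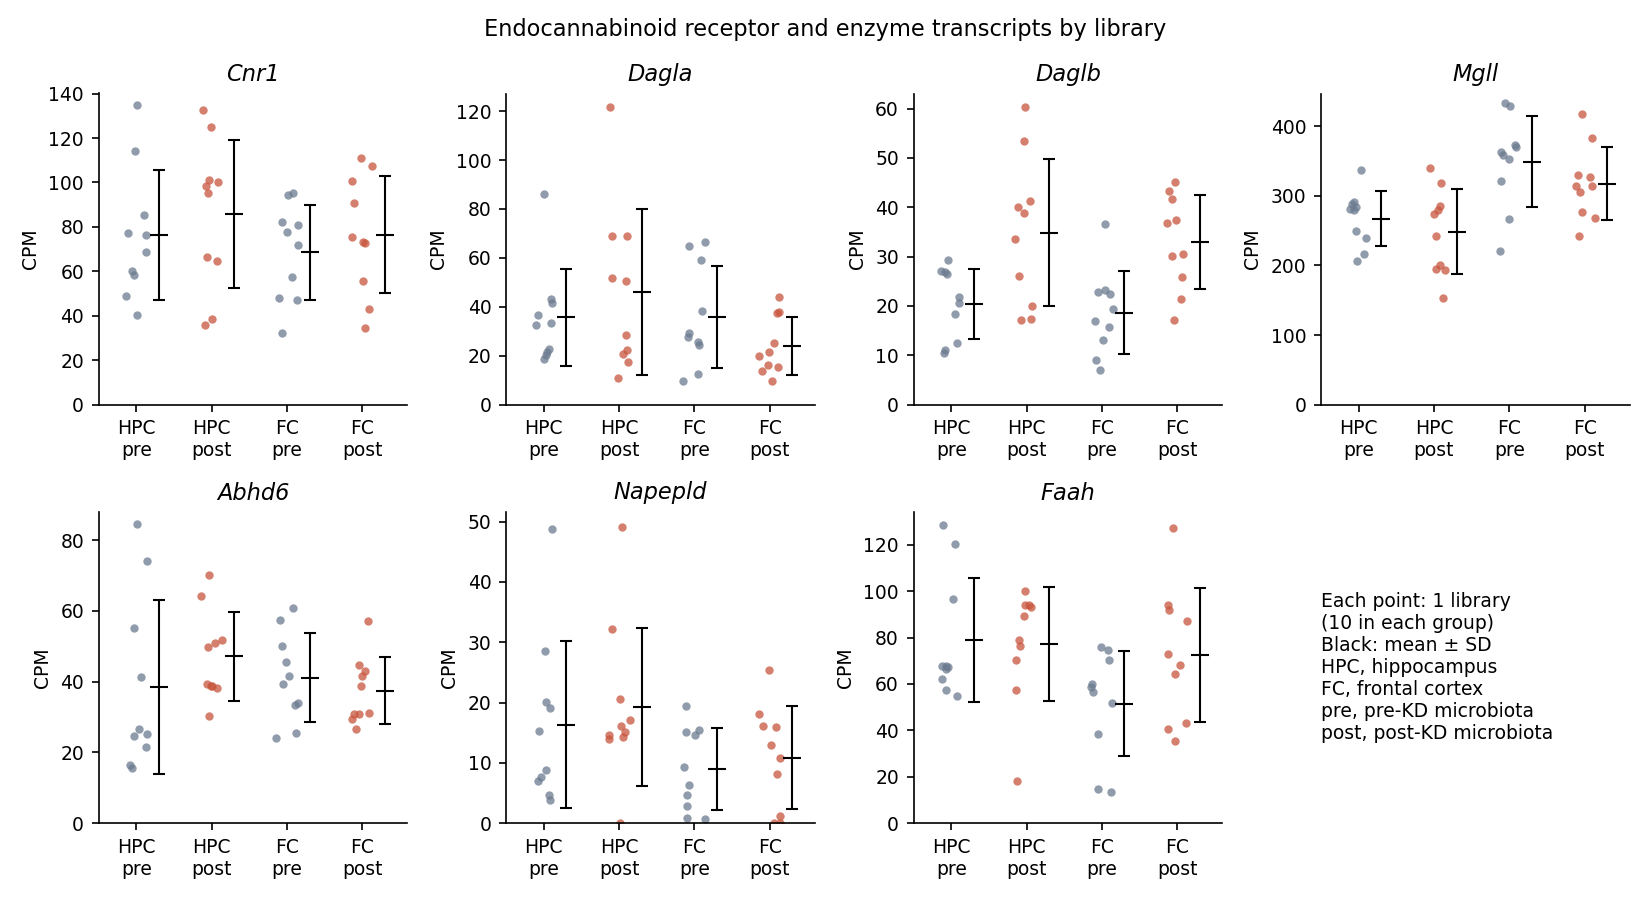
CPM of each transcript in the 40 libraries, 1 panel per gene with its own vertical axis from 0, points for libraries of the 4 groups and black bars for mean ± SD (n = 10). Ranges of pre-KD and post-KD libraries overlap in every panel and region, and the *Daglb* means stand at 20.5 and 34.8 in the hippocampus and at 18.6 and 33.0 in the frontal cortex.

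*Daglb*, the diacylglycerol lipase that is also prominent in microglia and macrophages, had the largest fitted difference among the 7 genes in both regions, higher with post-KD microbiota, though it did not pass the threshold adjusted over all genes. Frontal cortical levels in donors 1 to 10 in order were 36.7, 7.03, 22.4, 23.2, 15.7, 22.7, 13.2, 16.99, 19.3 and 9.09 CPM pre-KD. The post-KD cohorts of the same donors gave 41.7, 36.9, 30.2, 30.6, 25.8, 43.4, 17.1, 45.1, 21.4 and 37.4 CPM. The post-KD value was the higher one for 10 of 10 donors, and 5 of 10 post-KD libraries lay above the highest pre-KD library. Means were 18.6 ± 8.47 and 33.0 ± 9.54 CPM on counts of 10 to 83 reads per library. The log2 fold change was 0.82 (SE 0.34, 95% interval 0.15 to 1.49), with an unadjusted p of 0.0175 and an adjusted p of 0.276 (edgeR), and the adjusted p ranged from 0.190 to 1 over the alternatives. DESeq2 gave 0.82 with an unadjusted p of 0.00305 and an adjusted p of 0.671. Without the libraries of donor 2 the unadjusted p was 0.0510.

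The hippocampal *Daglb* values ran from 10.4 over a median of 21.3 to 29.3 CPM pre-KD and from 17.2 over 36.2 to 60.4 CPM post-KD. Of the post-KD libraries 6 of 10 lay above the pre-KD maximum, and the post-KD value was higher for 7 of 10 donors. The log2 fold change was 0.75 (SE 0.45, 95% interval -0.14 to 1.65, unadjusted p = 0.0967, adjusted p = 0.711, edgeR), and DESeq2 gave an unadjusted p of 0.0167 and an adjusted p of 0.9999. Exons of *Daglb* share 2309 bases, 24.1% of their merged length, with *Rac1*, a small GTPase gene on the opposite strand, and no strand setting for counting was found in the methods, so reads from the shared stretch cannot be told apart. *Rac1* itself averaged 188 ± 37.6 CPM pre-KD and 195 ± 44.6 CPM post-KD in the frontal cortex (log2 fold change 0.05, SE 0.14) and 179 ± 47.1 and 211 ± 46.0 CPM in the hippocampus (0.23, SE 0.17). Between conditions no marker list had a gene past the adjusted threshold in edgeR or DESeq2. Among the microglial markers, 0 of 5 had an unadjusted p under 0.05 between conditions in either region (edgeR), and their summed level ran from 106 to 206 CPM pre-KD and from 110 to 207 CPM post-KD in the frontal cortex.

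*Dagla*, which makes most of the 2-arachidonoylglycerol used at synapses of the adult brain, differed in sign between regions without passing a test in either. Hippocampal levels ran from 18.7 over 33.0 to 86.0 CPM pre-KD and from 10.96 over 39.4 to 122 CPM post-KD, while frontal cortical levels ran from 9.84 over 28.5 to 66.5 CPM pre-KD and from 9.58 over 20.7 to 44.0 CPM post-KD. The highest hippocampal library in each condition came from donor 6. Fitted log2 fold changes were 0.36 (95% interval -0.39 to 1.104) in the hippocampus and -0.57 (-1.24 to 0.10, unadjusted p = 0.0936, adjusted p = 0.692, edgeR) in the frontal cortex, and the difference between regions in this change was 0.66 (-0.48 to 1.80, adjusted p = 1, edgeR). The frontal cortical change was -0.37 without donor 1 or donor 10, and -0.76 without donor 3 or donor 8 (unadjusted p = 0.0302 and 0.0386, adjusted p = 0.412 and 0.467, edgeR).

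The balance of the 2 synthetic enzymes was compared as a log2 ratio of *Dagla* to *Daglb* within a library, with 1 CPM added to each level. In frontal cortex this ratio averaged 0.80 ± 0.95 in pre-KD and -0.52 ± 0.85 in post-KD cohorts (SD, n = 10), a difference of -1.32, and 9 of 10 donors had the lower ratio post-KD. A 2-sided permutation test of independent libraries gave p = 0.00418, or 0.0251 after adjustment over 6 such ratio tests. Permuting signs within donors instead, as an exact test, gave p = 0.0137 and an adjusted p of 0.0820, so the call depended on whether donors were paired. Leaving out donor 1, 2, 5, 6 or 10 also took the adjusted p to between 0.0506 and 0.0898, with a difference of -1.03 to -1.34. The hippocampal ratio averaged 0.71 ± 0.63 pre-KD and 0.18 ± 0.94 post-KD (difference -0.52, permutation p = 0.158, adjusted p = 0.475), and whether the post-KD change of this ratio differs between regions was not tested.

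**Figure D3:**
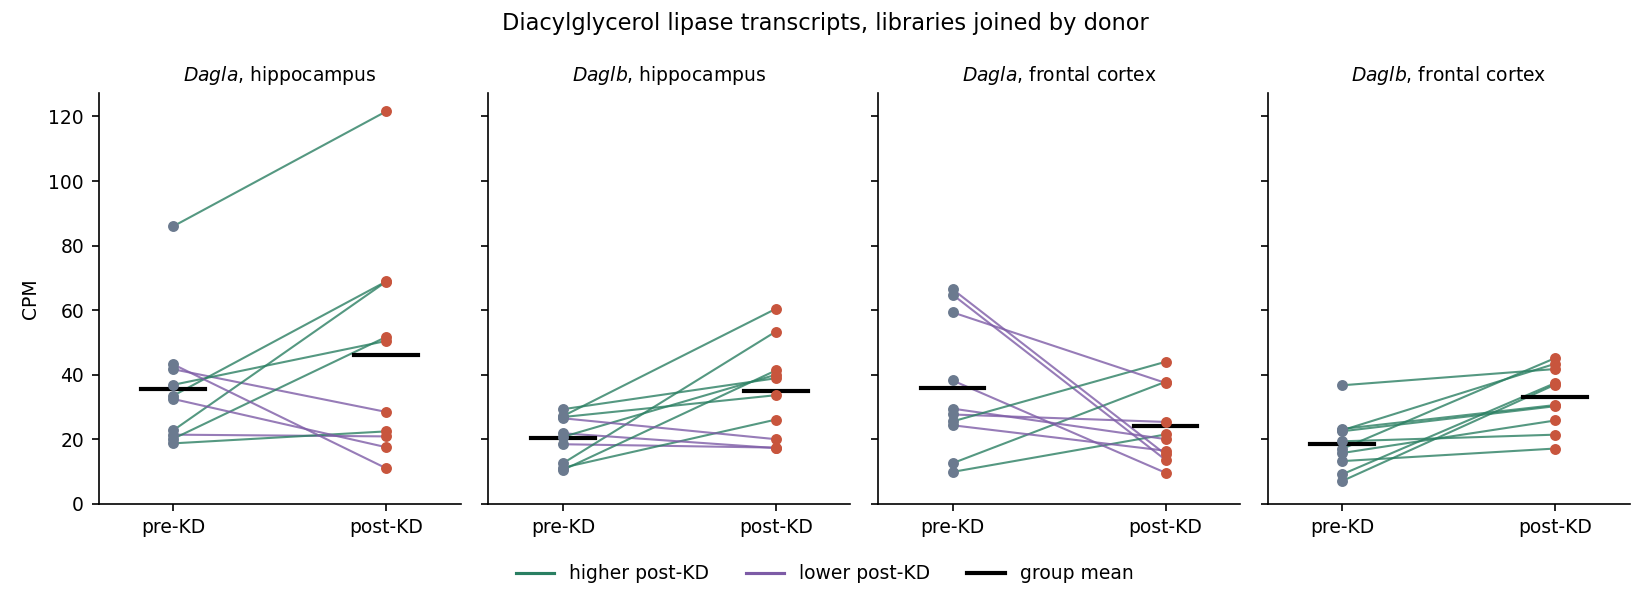
*Dagla* and *Daglb* in CPM on a shared vertical axis, with a line from each donor's pre-KD library to its post-KD one, green where the post-KD value is higher and purple where it is lower, and black bars at the group means. *Daglb* is higher post-KD for 10 of 10 donors in the frontal cortex and 7 of 10 in the hippocampus, and frontal cortical *Dagla* is lower for 7 of 10.

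Neither enzyme that breaks down 2-arachidonoylglycerol passed a test between conditions. *Mgll* ran from 207 over 280 to 336 CPM pre-KD and from 153 over 258 to 340 CPM post-KD in the hippocampus, and from 221 over 361 to 433 and from 242 over 314 to 417 CPM in the frontal cortex. Post-KD values were lower for 7 of 10 donors in each region. Its fitted changes of -0.11 (95% interval -0.43 to 0.20) and -0.14 (-0.37 to 0.09) had the narrowest intervals of the 7 genes, and the difference between regions in the change was -0.0035 (-0.38 to 0.38). *Abhd6* spanned 15.6 to 84.4 CPM in pre-KD and 30.3 to 70.1 CPM in post-KD hippocampus, with 6 of 10 pre-KD libraries below the lowest post-KD one, and its log2 fold changes were 0.29 (-0.41 to 0.99) in the hippocampus and -0.14 (-0.65 to 0.38) in the frontal cortex.

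For anandamide, only *Faah* in the frontal cortex had an unadjusted p under 0.05 (edgeR), and *Napepld* did not in either region. *Faah* in the frontal cortex ran from 13.3 over 57.7 to 75.7 CPM pre-KD and from 35.4 over 70.7 to 127 CPM post-KD. Post-KD levels were higher for 7 of 10 donors, and 4 of 10 post-KD libraries lay above the pre-KD maximum. The log2 fold change was 0.49 (SE 0.25, 95% interval 0.01 to 0.98, unadjusted p = 0.0474, adjusted p = 0.500, edgeR), against -0.04 (-0.55 to 0.48) in the hippocampus, where levels ran from 54.7 to 128 CPM pre-KD and from 18.4 to 100.04 CPM post-KD. The change was 0.33 without donor 3 (unadjusted p = 0.205, edgeR), the unadjusted p was also above 0.05 without donor 2, 6, 7, 8 or 10, and DESeq2 and filterByExpr gave 0.0699 and 0.0655. The difference between regions was -0.60 (-1.36 to 0.16, adjusted p = 1, edgeR). *Napepld*, measured on 0 to 67 reads per library, gave 0.23 (-1.001 to 1.46) in the hippocampus and 0.28 (-1.05 to 1.601) in the frontal cortex. The log2 ratio of *Napepld* to *Faah* did not pass the adjusted threshold in either region (adjusted permutation p = 0.722 and 0.585).

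Counted over the 7 genes, 0 passed an adjusted p of 0.05 in the hippocampus, where 0.0057% of 17529 tested genes did, and 0 passed an unadjusted p of 0.05, where 10.1% of all genes did. In frontal cortex the counts were 0 adjusted, against 0.0056% of 17873 genes, and 2 unadjusted (*Daglb* and *Faah*, both higher), against 9.68% in either direction and 5.01% higher. These shares depended on the filter on low counts. With filterByExpr, 221 of 9509 genes had an unadjusted p under 0.05 in hippocampus and 407 of 10033 in frontal cortex (edgeR). Of the 7 genes, 0 and 1 did. DESeq2 called 0 of the 7 after adjustment in both regions, against 0% and 0.0112% of all genes, and gave an unadjusted p under 0.05 to 1 in each, *Daglb*, against 3.42% and 4.62%. The median log2 fold change of the 7 genes was 0.23 for hippocampus and 0.15 for frontal cortex, beside medians over all genes of -0.0076 and 0.0087. No difference between regions in the post-KD change passed for them, adjusted (0.0154% of 19422 genes) or unadjusted (2.22%), in edgeR.

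**Figure D4:**
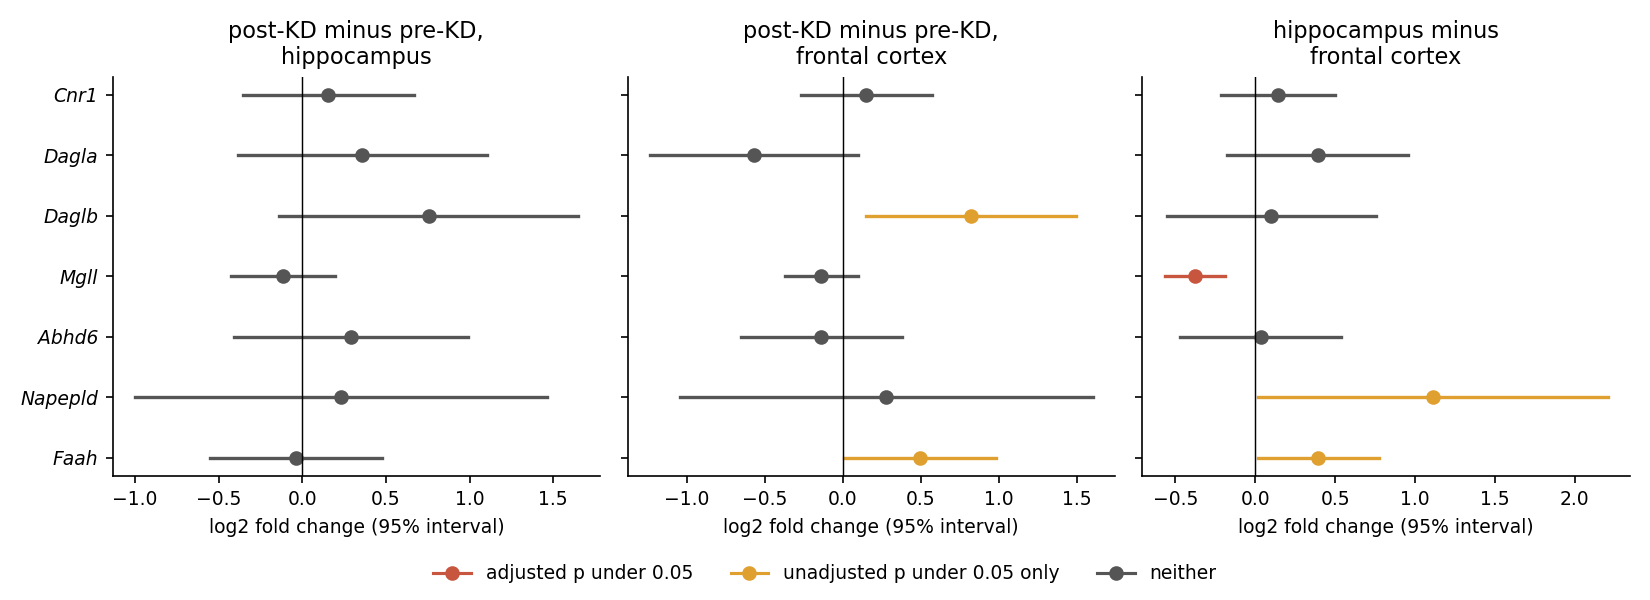
Fitted log2 fold changes of the 7 genes with 95% intervals (edgeR), in 3 panels for post-KD minus pre-KD in the hippocampus, the same in the frontal cortex, and hippocampus minus frontal cortex. *Mgll* in the region panel, at -0.38, is the one difference past the adjusted threshold, and *Daglb* at 0.75 and 0.82 lies farthest to the right in the other panels.

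Between regions, *Mgll* was lower in the hippocampus than in the frontal cortex of the same cohorts. Hippocampal levels ran from 153 over 276 to 340 CPM (258 ± 50.8, n = 20) and frontal cortical levels from 221 over 328 to 433 CPM (333 ± 59.7). The hippocampal value was the lower one in 9 of 10 pre-KD and 7 of 10 post-KD cohorts. With a term for each cohort, the log2 difference was -0.38 (SE 0.10, 95% interval -0.57 to -0.19, adjusted p = 0.00596, edgeR), while the median over all genes was -0.17. It was called in each alternative, with an adjusted p of 0.000300 to 0.0405. A share of 2.85% of 19422 genes was called between regions, 1.98% as lower in hippocampus, and *Mgll* was 1 of 7 here.

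**Figure D5:**
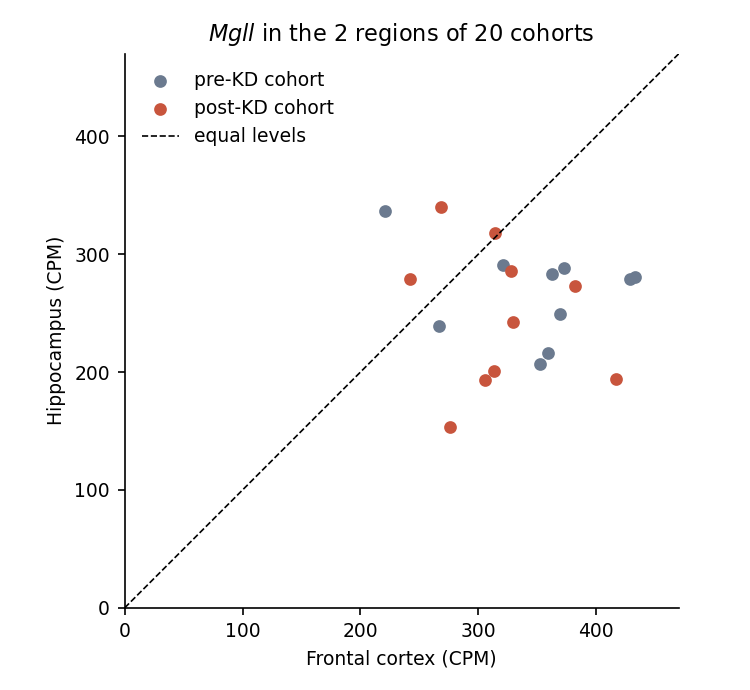
*Mgll* in CPM in the hippocampus (vertical axis) against the frontal cortex (horizontal axis) of the 20 cohorts, with a dashed line at equal levels. Of 20 cohorts, 16 lie below the line, 9 pre-KD and 7 post-KD.

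Marker lists that also differed between regions give the setting of this difference. Striatal markers summed to 49.3 to 287 CPM in hippocampal and 446 to 1018 CPM in frontal cortical libraries, and 2 of 3 GABA neuron markers were lower in hippocampus. Markers of choroid plexus were higher in hippocampus for 4 of 6 genes, excitatory neuron markers differed for 3 of 5 (2 higher and 1 lower) and cerebral cortex markers for 3 of 6 (1 higher and 2 lower). Among astrocyte, oligodendrocyte and microglial markers 0 of 5 each passed the adjusted threshold in edgeR, with 1, 3 and 1 unadjusted, and DESeq2 called 1 astrocyte marker. The lists for cholecystokinin-type interneurons, oligodendrocyte precursors, endothelium and blood gave 0 calls after adjustment in edgeR, with 1 of 7, 0 of 2, 2 of 3 and 2 of 3 unadjusted, and DESeq2 called 1 endothelial marker. The part of these tissues in the *Mgll* difference was not tested, and in pooled tissue fewer cells of a type and less RNA per cell cannot be told apart.

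*Faah* and *Napepld* were higher in the hippocampus before adjustment only. *Faah* averaged 78.0 ± 24.9 CPM there and 61.97 ± 27.4 CPM in the frontal cortex, higher in 14 of 20 cohorts (log2 difference 0.39, 95% interval 0.02 to 0.77, adjusted p = 0.423, edgeR). For *Napepld* the means were 17.8 ± 13.2 and 9.89 ± 7.60 CPM, again higher in 14 of 20 cohorts (1.11, 0.02 to 2.21, adjusted p = 0.446, edgeR). With *Mgll*, 3 of 7 genes had an unadjusted p under 0.05, against 10.9% of all genes, and 2 of 7 as higher in hippocampus, against 2.78%. Only *Mgll* was left of the 3 when the cohort block was dropped (p = 0.0610 for *Faah* and 0.0672 for *Napepld*, edgeR) or donor 1, 2 or 5 was left out. *Faah* alone was also lost without donor 4 or 10, and *Napepld* alone without donor 7, 8 or 9 and with filterByExpr. *Cnr1* (0.14, -0.21 to 0.50), *Dagla* (0.39, -0.18 to 0.96), *Daglb* (0.10, -0.55 to 0.75) and *Abhd6* (0.03, -0.47 to 0.54) did not pass. *Dagla* relative to *Mgll* was higher in the hippocampus in 16 of 20 cohorts by 0.78 on the log2 scale (permutation p = 0.0163 within cohorts, adjusted p = 0.0488 over 3 ratios), and the ratios of *Dagla* to *Daglb* (0.31, higher in 12 of 20 cohorts, adjusted permutation p = 0.353) and *Napepld* to *Faah* (0.55, 11 of 20, adjusted p = 0.353) did not pass. The *Dagla* to *Mgll* call was lost without donor 2, 3, 4, 5, 6, 7 or 8, where the difference was 0.59 to 0.84.

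Levels of a transcript in the 2 regions of a cohort were compared over the 20 cohorts, and 0 of 7 correlations passed a permutation test. For *Daglb*, log2(CPM + 1) in hippocampus and frontal cortex correlated at r = 0.39 (permutation p = 0.0947) and rho = 0.31 (p = 0.188) over 20 cohorts, with adjusted p of 0.663 and 0.973 over 7 genes. Within conditions r was 0.20 pre-KD and -0.07 post-KD, and without the 2 farthest cohorts it was 0.27. The other 6 genes had r between -0.27 and 0.01, with adjusted p of 0.854 or more. Within conditions their r lay between -0.34 and 0.13, except for *Abhd6*, at -0.15 pre-KD and 0.65 post-KD, which was not tested. Between members, r over 40 libraries after removal of region means ran from -0.28 to 0.37, highest for *Daglb* with *Faah*. Outside the set, the most similar genes were *Gad1* and *Ctsb* for *Daglb* (r = 0.57 both), *Ckb* and *Pla2g6* for *Mgll* (0.71 and 0.64), *App* and *AI464131* for *Cnr1* (0.61 and 0.51), *Ensa* and *Copa* for *Dagla* (0.63 and 0.59), *Slc6a13* and *Pphln1* for *Faah* (0.62 and 0.58), *2310061I04Rik* and *Fam91a1* for *Napepld* (0.58 both), and *Klhl22* and *Foxj2* for *Abhd6* (0.68 and 0.67). These libraries share depth and condition, and the best r of a gene had a median of 0.653 over 8157 genes.

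Beyond the 7 genes, a list of 34 pathway genes held other receptors of these lipids, CB1-binding proteins, alternative synthetic and degrading enzymes and carriers. Of 28 tested in the hippocampus, 0 passed the adjusted threshold between conditions, and 2 passed unadjusted (against 10.1% of all genes), *Cnr2* (p = 0.00430) and *Hrasls5* (p = 0.00309, edgeR). Both rested on 1 library each, since the 10 hippocampal reads of *Cnr2*, the CB2 receptor gene of immune cells, lay in the post-KD library of donor 9 and the 11 of *Hrasls5* in that of donor 3. Of 26 tested in the frontal cortex, 0 passed adjusted and 1 passed unadjusted (against 9.68% of all genes): *Fabp3*, a fatty acid binding protein gene, averaged 77.0 ± 16.1 CPM pre-KD and 54.0 ± 12.3 CPM post-KD and was lower for 9 of 10 donors (log2 fold change -0.51, SE 0.20, adjusted p = 0.217, edgeR). DESeq2 called 0 of the list in either region after adjustment, with 0 unadjusted in the hippocampus and 1, *Fabp3*, in the frontal cortex. Between regions 2 of 28 passed adjusted (against 2.85% of all genes), both genes of phospholipase C isoforms that release the diacylglycerol used by the lipases, and both lower in hippocampus. *Plcb4* averaged 43.7 ± 19.2 CPM there and 105 ± 27.1 CPM in the frontal cortex, lower in 20 of 20 cohorts (log2 difference -1.36, SE 0.19, adjusted p = 7.37e-11, edgeR), and *Plcb1* averaged 322 ± 74.5 and 436 ± 72.3 CPM, lower in 16 of 20 (-0.45, SE 0.09, adjusted p = 3.94e-05, edgeR). The pathway list had a median log2 change of 0.03 in hippocampus and -0.08 in frontal cortex between conditions, and of -0.07 between regions.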

How the data were processed

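Per the labels, RNA was extracted with a PureLink kit and sequenced from TruSeq libraries (the key resources of the study also list a QuantSeq kit). The authors trimmed paired reads of 69 bp, aligned them to mm10 with STAR 2.5.2a and deposited unnormalized HTSeq 0.6.0 counts for 47643 genes in each region, which carry no strand or annotation statement and list no unassigned reads. SAMtools 1.3 and FastQC 0.11.5 are in the submitters' processing notes.

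Genes with at least 10 summed counts were tested with edgeR 4.0.16 (quasi-likelihood, TMM, R 4.3.3, limma 3.58.1), with post-KD set against pre-KD in either region, and over 40 libraries with 20 cohort terms between regions and for the difference between regions in the change. Benjamini-Hochberg adjustment ran over every gene of a fit, at a threshold of 0.05. CPM come from 1 TMM normalization of 40 libraries. Standard errors are the fold change divided by the square root of F. Permutation tests used 100000 resamples or were exact (scipy 1.17.1, numpy 2.4.6, pandas 2.3.3, Python 3.11.15), and plots used matplotlib 3.10.9. Alternatives were DESeq2 1.42.0, other filters and size factors, the donor or cohort as a block or not, a Y-linked covariate, the table without Gm42418 (8.63% to 18.0% of counts) and mitochondrial genes, other pseudocounts (0.1 and 5 CPM), and leaving out each donor. The main edgeR fits between conditions and between regions were run on simulated counts that held no donor or cohort effect. The fit of the difference between regions in the change, the alternatives and the permutation tests were not simulated.

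Positions and exon lengths came from GENCODE M21 (47224 of 47643 identifiers matched). Donors pair the cohorts by design, as the labels give each donor a pre-KD and a post-KD library. After removal of group means, libraries of a donor correlated at -0.030 to 0.027 in the hippocampus and -0.045 to 0.032 in the frontal cortex, with 0 of 10 pairs above 0.1 in either. Of 180 pairs of libraries within groups, 0 were identical.

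The members, the pathway list and the marker lists were chosen with earlier results of these data known. Named were the 7 members, pathway genes past the adjusted threshold between regions or with an unadjusted p under 0.05 between conditions, and the 2 genes most correlated with each member (log2 of CPM + 1, region means removed, genes averaging at least 20 counts). *Rac1* was named after its overlap with *Daglb* was seen.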

Additional observations from a re-analysis of the deposited data

Results flagged for a closer look

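Within the groups of 10 libraries, the highest or lowest value of 28 combinations of gene and group was compared with its nearest neighbour by Dixon's ratio, and 3 stood apart, where chance gives about 1 in 20. *Dagla* in the hippocampus was highest in the libraries of donor 6 in both conditions, with 86.0 CPM pre-KD, where the next library had 43.2 CPM, and 122 CPM post-KD, where the next had 68.9 CPM. In frontal cortex the same donor's cohorts gave 29.5 and 20.01 CPM, inside the range of the others. *Faah* in post-KD hippocampus was lowest in the library of donor 8 at 18.4 CPM, and the next had 57.5 CPM.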

How the results depend on the processing

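Between conditions, 0 of 7 genes passed the adjusted threshold in either region under each alternative that was run, and between regions *Mgll* alone passed under each. With the donor as a block, edgeR called 0 genes in hippocampus and 3 in frontal cortex (0 and 12 by DESeq2), against 1 and 1 without it (0 and 2 by DESeq2). The block ended the call on the frontal cortical *Dagla* to *Daglb* ratio (difference -1.32, adjusted p = 0.0820), so 0 of 6 ratios passed, and changed no other call on these genes. Without the cohort block 1935 genes were called between regions (554 with it, 1033 by DESeq2), 348 for the difference between regions in the change (3 with it), and 1 of 7 genes had an unadjusted p under 0.05 between regions in place of 3. Of all 19422 genes, 3475 had an unadjusted p under 0.05 between regions without that block, against 2117 with it (edgeR). In the hippocampus 1291 genes were called with no filter on low counts and 0 with filterByExpr or DESeq2, against 1. DESeq2, with or without the donor, gave an unadjusted p under 0.05 to 1 of 7 genes there in place of 0. Of 17529 genes, 599 had such a p in DESeq2 without the donor and 931 with it. In frontal cortex DESeq2 called 2 genes, and DESeq2 and filterByExpr each left 1 of 7 at an unadjusted p under 0.05 in place of 2. Over all genes there, 825 of 17873 had such a p with DESeq2 and 407 of 10033 with filterByExpr. A pseudocount of 0.1 CPM took the *Dagla* to *Mgll* ratio between regions to 0.79 (adjusted p = 0.0509), so 0 of 3 passed, and turned the hippocampal *Napepld* to *Faah* ratio from 0.26 to -0.0012. Without the cohort block, the difference between regions in the change turned to 0.029 for *Mgll* and -0.042 for *Napepld*. The correlation between regions turned for *Abhd6* from -0.0055 to 0.0014 with a pseudocount of 5 CPM and 0.051 after removal of condition means. The cause was not tested for any of these.

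When each donor was left out in turn, the genes called in the hippocampus ranged from 0 to 1 (0 without donor 4 or 9), members with an unadjusted p under 0.05 from 0 to 2 in the frontal cortex (0 without donor 2, 1 without donor 6, 7 or 10, and *Dagla* in place of *Faah* without donor 3 or 8) and from 1 to 3 between regions (1 without donor 1, 2 or 5), and the ratios called from 0 to 1 in each family. These ratio differences ranged from -1.59 to -1.03 for *Dagla* to *Daglb* in the frontal cortex, from 0.59 to 0.97 for *Dagla* to *Mgll* between regions and from -0.027 to 0.62 for hippocampal *Napepld* to *Faah*. Leaving donors out of the ratios was chosen after seeing the data. Over all genes, the leave-outs gave an unadjusted p under 0.05 to 1570 to 1718 in frontal cortex and 1859 to 2145 between regions. Signs turned for *Faah* (-0.12 to 0.064) and *Napepld* (-0.14 to 0.57) in the hippocampus, *Napepld* in the frontal cortex (-0.026 to 0.63), and *Daglb* (-0.0011 to 0.24) and *Abhd6* (-0.064 to 0.11) between regions.

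Over the same leave-outs, changes that kept their sign but moved by over 1.5 times ranged, in the hippocampus, from 0.08 to 0.37 for *Cnr1*, from 0.23 to 0.51 for *Dagla*, from -0.20 to -0.033 for *Mgll* and from 0.18 to 0.55 for *Abhd6*, and in the frontal cortex from 0.029 to 0.26 for *Cnr1*, from -0.76 to -0.37 for *Dagla*, from 0.33 to 0.64 for *Faah*, from -0.23 to -0.063 for *Mgll* and from -0.29 to -0.032 for *Abhd6*. Blocking on donors moved hippocampal *Dagla* from 0.36 to 0.20 (edgeR) or 0.22 (DESeq2), hippocampal *Abhd6* from 0.29 to 0.50 or 0.52, and frontal cortical *Napepld* from 0.28 to 0.080 or 0.071.

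Median reads per library were 12 to 25 for *Napepld* and 29.5 to 60.5 for *Daglb*, and counting error at these depths was below the spread between libraries in each group.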
